A study of Mus musculus with 19 samples.

Results

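The collagen genes of the developing mouse ovary were followed across 6 stages. A gene was taken as a member when the array's annotation gave its probe set a single symbol of the form Col, number, a, number. By this rule 42 genes were members, of 18194 genes with a single-gene probe set, and they were measured by 82 probe sets. Each gene is represented by the probe set with the highest mean over the 18 ovary arrays. The members fall into 11 fibrillar collagen genes, 8 genes of basement membrane collagens and 23 genes of other types.

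The study profiled whole ovaries of wild-type CD-1 mice, an outbred stock, by Affymetrix whole-genome expression arrays after 2 rounds of amplification. Ovaries were excised whole at gestation days 11, 12, 14, 16 and 18 (gd11 to gd18) and at postnatal day 2 (pnd2), from matings timed to a window of 2 hours. Each stage has 3 arrays, numbered 16, 18 and 19 for gd11, 13 to 15 for gd12, 10 to 12 for gd14, 7 to 9 for gd16, 4 to 6 for gd18 and 1 to 3 for pnd2. Values are given in that order within a stage. Arrays 16 and 18 of gd11 are labelled as gonad together with the mesonephros, the embryonic kidney that lies against it, and array 19 as gonad alone. The labels call the gd11, gd12 and gd14 samples pools of 3, whereas the study design describes every sample as the ovary pair of 1 animal, with separate dams for all samples other than gd11 18 and 19. A single further array holds a pool of 8 whole animals at postnatal day 0.5, 4 male and 4 female, as a common reference.

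Collagens are secreted proteins built of 3 chains wound into a triple helix. Fibrillar collagens such as types I, III and V pack into the load-bearing fibres of connective tissue, and type II is the fibrillar collagen of cartilage. Type IV collagen forms the network of basement membranes, the sheets beneath epithelia and around vessels, muscle and follicles. Type VI collagen makes beaded microfilaments around cells, the fibril-associated collagens (types IX, XII, XIV, XVI and others) decorate fibrils, type VIII forms short-chain networks, and a few collagens span the cell membrane. In the ovary, stromal cells make fibrillar and type VI collagen, and granulosa cells lie on a basement membrane that holds type IV collagen.

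The RefSeq upstream table (GRCm38.p6) held sequences for 33 of the 42 genes. The 250 bases before the annotated start are shown for 4 genes whose upstream bases overlap no annotated gene. They are Col6a1 and Col6a2, whose products join in 1 triple helix and whose signals rose together, and Col1a2 and Col3a1, fibrillar chains that rose at gd16. Capitals mark the letters of a TATA box (TATAAA), of a CCAAT box and of a GC box (GGGCGG), on either strand.
Col6a1: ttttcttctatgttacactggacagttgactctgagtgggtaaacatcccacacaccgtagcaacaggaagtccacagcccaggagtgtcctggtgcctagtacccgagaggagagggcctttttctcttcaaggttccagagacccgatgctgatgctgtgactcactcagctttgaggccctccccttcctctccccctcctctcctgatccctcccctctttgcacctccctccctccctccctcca
Col6a2: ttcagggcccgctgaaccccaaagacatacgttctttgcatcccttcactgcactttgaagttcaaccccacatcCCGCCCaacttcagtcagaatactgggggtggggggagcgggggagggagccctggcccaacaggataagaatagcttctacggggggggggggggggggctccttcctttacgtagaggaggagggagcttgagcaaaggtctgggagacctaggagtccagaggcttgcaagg
Col1a2: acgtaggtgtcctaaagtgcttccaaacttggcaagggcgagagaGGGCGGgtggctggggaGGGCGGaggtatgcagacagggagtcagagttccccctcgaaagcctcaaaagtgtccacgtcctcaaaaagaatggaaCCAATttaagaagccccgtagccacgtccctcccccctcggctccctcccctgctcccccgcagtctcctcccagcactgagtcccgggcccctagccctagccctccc
Col3a1: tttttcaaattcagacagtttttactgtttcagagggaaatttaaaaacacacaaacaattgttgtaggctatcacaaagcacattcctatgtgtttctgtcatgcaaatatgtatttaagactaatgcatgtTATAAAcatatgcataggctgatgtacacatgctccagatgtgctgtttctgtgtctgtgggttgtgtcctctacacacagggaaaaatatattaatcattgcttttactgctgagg
These lie at chr10:76726045-76726294 (minus strand), chr10:76623631-76623880 (minus strand), chr6:4505368-4505617 (plus strand) and chr1:45311288-45311537 (plus strand). The Col6a1 stretch held none of the 3 motifs, that of Col6a2 held 1 GGGCGG, and that of Col1a2 held 2 GGGCGG and a CCAAT that begins 109 bases before the start. The Col3a1 stretch held a TATAAA that begins 117 bases before the start. Col6a2 has another annotated start in the table, and the stretch before it (chr10:76623405-76623654, minus strand), which is not shown, held 3 GGGCGG. Of the 33 collagen genes with a sequence, 5 held TATAAA, 13 held CCAAT and 20 held GGGCGG in at least 1 upstream stretch. Among all 32851 upstream stretches in the table the shares were 12.4%, 33.8% and 32.7%. The collagen numbers count genes, which had 36 stretches in all, and the shares count stretches, so they are not like for like. The starts of Col4a1 and Col4a2 in the table lie 21 bases apart on opposite strands, and those of Col4a5 and Col4a6 lie 1343 bases apart on opposite strands. Each upstream stretch of the Col4a1 and Col4a2 pair lies in the transcribed part of a neighbour and is not shown.

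Several libraries stood apart. The gd16 array labelled 7 had an Xist signal of 44.8, where the other 17 ovary arrays ranged from 11306 to 18576. Its signals for the Y-linked genes Eif2s3y, Kdm5d and Uty were 40.2, 64.4 and 29.4, against at most 33.1, 84.4 and 45.7 on the others, and its Foxl2 signal of 2502 lay between those of the other gd16 arrays. The gd11 array labelled 16 had neuronal signals of 7965 for Stmn2 and 4952 for Elavl4, against 227 and 291, and 310 and 569, on the other gd11 arrays, and the lowest summed collagen signal of the ovary arrays. The duct marker Cdh16 read 979, 1542 and 1546 at gd11 and 1497, 1517 and 1157 at gd12, and 26 to 876 at gd14 and later. The summed signal of 6 duct markers was 2611 to 2649 at gd11, array 19 included, 1824 to 2284 at gd12 and 291 to 971 at gd14. The ratio of 3' to 5' Gapdh signal, a measure of RNA and amplification quality, was 2.99 to 3.28 at gd11 and 5.07 to 5.41 at pnd2. Its part in the results was not tested.

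Signals are on the linear scale of the array software, and changes are log2 differences of signal plus 31, a pseudocount that shrinks the change of low signals. A gene was tested when its mean in at least 1 stage passed 116.05, the median of all ovary values, and called when the adjusted p of the limma fit was under 0.05. Of the 42 collagen genes, 34 were tested (9 fibrillar, 7 basement membrane and 18 other). The other 8 are Col5a3, Col11a2, Col4a3, Col6a5, Col19a1, Col20a1, Col10a1 and Col17a1. Of the 34, 25 passed in all 6 stages. The 9 that passed in only some stages are Col2a1, Col9a1, Col22a1, Col9a3, Col24a1, Col6a4, Col9a2, Col4a4 and Col8a1. Of these, Col2a1 passed through gd11 alone and Col9a3 through pnd2 alone. Both had to differ, so their calls are no separate support. Col24a1, Col6a4 and Col9a2 passed through gd18 and pnd2 alone. Col4a4 passed through gd16, gd18 and pnd2 alone, and Col9a1 through gd11, gd12 and gd14 alone. For these genes, calls between a stage that passed and one that did not are likewise no separate support. All of them are among the members counted below. Since ovaries were measured whole, fewer cells of a type and less RNA per cell cannot be told apart.

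Some collagen genes rose over the 6 stages and others fell. All 3 main chains of type VI collagen, the type IV chains Col4a1, Col4a2 and Col4a4, and the fibrillar chains Col1a2 and Col3a1 were higher at pnd2 than at gd11. The cartilage collagens Col2a1 and Col9a1 were lower, while Col9a2 and Col9a3, the other type IX chains, were higher. By the F test over the stages, 26 of the 34 tested members were called (76.5%), a share near the 68.1% of all 12565 genes tested. Among those 26, the highest mean fell at gd11 in 6, at gd12 in 1, at gd16 in 6, at gd18 in 5 and at pnd2 in 8, and at gd14 in none. Of all called genes, 22.3% peaked at gd11, 9.07% at gd12, 13.9% at gd14, 20.1% at gd16, 9.26% at gd18 and 25.4% at pnd2.

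**Figure D1:**
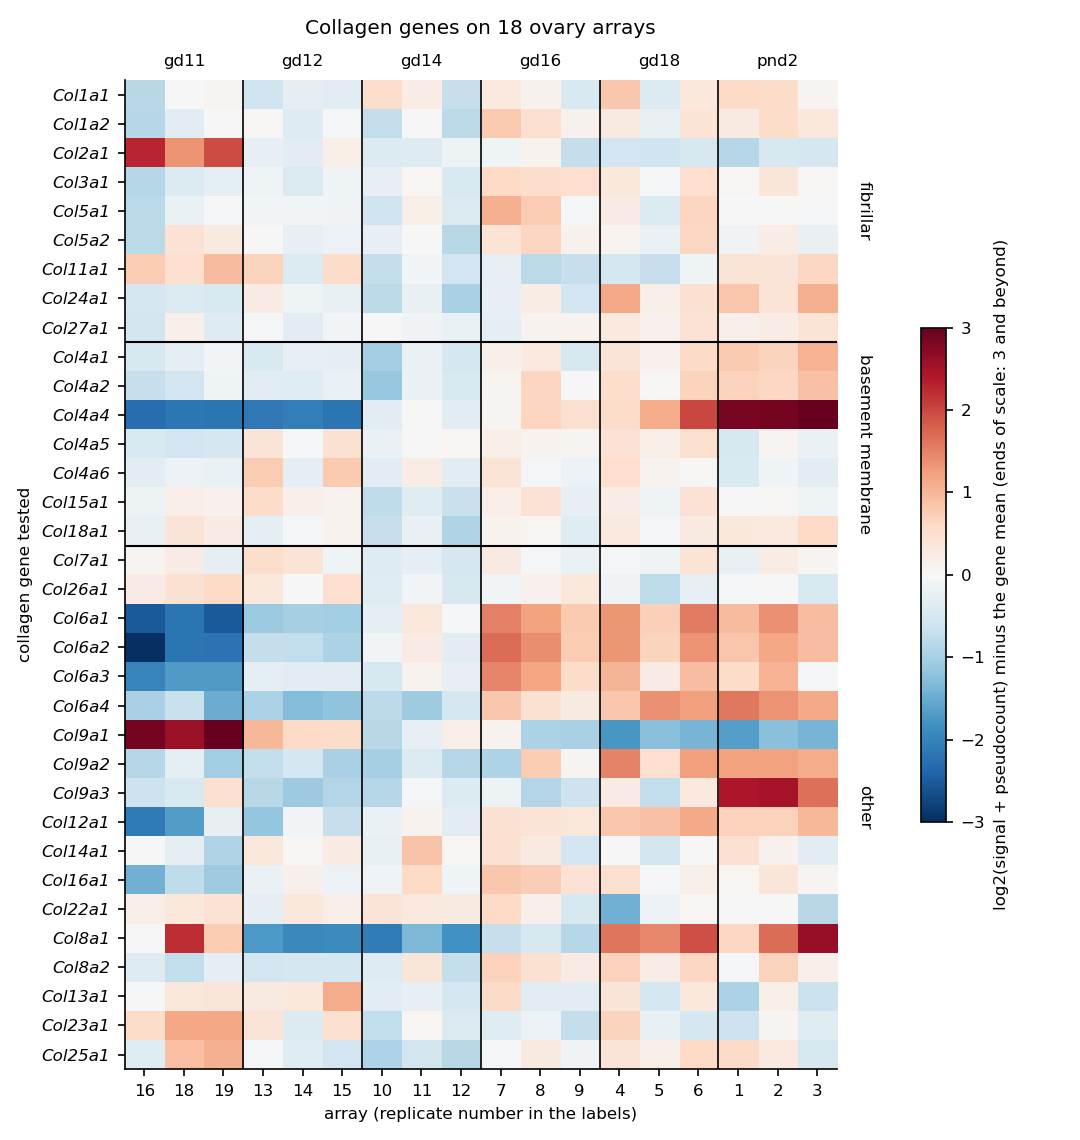
Each row is 1 of the 34 tested collagen genes and each column 1 of the 18 ovary arrays, ordered by stage and replicate number. Colour gives log2(signal + 31) minus that gene's mean over the arrays, red for higher and blue for lower. The type VI rows turn from blue to red between gd14 and gd16, Col4a4 is reddest at pnd2, and Col2a1 and Col9a1 are red at gd11.

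Type VI chains were called in the 3 steps from gd11 to gd16. The fibrillar chains Col1a2, Col3a1 and Col5a1, 1 type IV chain (Col4a2) and Col15a1 were called higher with them from gd14 to gd16. From gd11 to gd12, 8 of 34 members were called (23.5%), 5 higher and 3 lower, beside 4.72% of all genes tested, 3.3% higher and 1.42% lower. From gd12 to gd14, 6 members were called, 3 higher and 3 lower, beside 19.6% of all genes (11.6% higher, 8.01% lower). From gd14 to gd16, 9 members were called (26.5%), all higher, beside 21.2% of all genes (11.4% higher, 9.77% lower), and the median change was 0.54 over the members and 0.09 over all genes. From gd16 to gd18, 1 member was called higher, beside 8.18% of all genes (4.94% higher, 3.24% lower). From gd18 to pnd2, 4 members were called, 3 higher and 1 lower, beside 15.3% of all genes (8.48% higher, 6.85% lower). Over the whole span, pnd2 against gd11, 20 members were called (58.8%), 16 higher and 4 lower, beside 46.9% of all genes (26.3% higher, 20.6% lower). Their median change was 0.59, and that of all genes was 0.04. With gd11 arrays 18 and 19, for which separate dams are not given, averaged into 1 sample, 18 were called, 15 higher and 3 lower, without Col8a2 (adjusted p = 0.0535) and Col26a1 (adjusted p = 0.0678). Against gd12, at which every array is labelled as ovary without mesonephros, 17 members were called (50%), 13 higher and 4 lower, beside 40.2% of all genes (22.6% higher, 17.6% lower). The gd11 and gd12 comparisons with pnd2 share the pnd2 arrays. The 9 calls from gd14 to gd16 became 6 under median scaling and 12 under quantile normalization, all higher. Leaving out gd14 array 11 raised the count from gd14 to gd16 to 14, all higher. Leaving out gd16 array 7, the one with low Xist, gave 8, without Col5a1 (adjusted p = 0.142) and Col15a1 (adjusted p = 0.0546) and with Col9a2 (adjusted p = 0.0384). The count from gd12 to gd14 fell to 3 without gd12 array 13 and to 3 without gd14 array 10.

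Among the fibrillar collagens, Col1a2 and Col3a1 rose between gd14 and gd16 and were called higher at pnd2 than at gd11, while Col1a1, Col5a2 and Col27a1 did not pass the F test. Of the 9 tested fibrillar genes, 3 rose from gd14 to gd16 (33.3%) and none fell, beside 11.4% of all genes higher and 9.77% lower. From gd11 to pnd2, 4 rose (44.4%) and 1 fell (11.1%), beside 26.3% higher and 20.6% lower. Col3a1 encodes the chain of type III collagen, a homotrimer of soft, extensible tissues. Its signals were 11744, 15940 and 17822 at gd11, 19408, 15888 and 19364 at gd12, 18036, 22302 and 15552 at gd14, 32201, 30629 and 30013 at gd16, 26732, 20859 and 30239 at gd18 and 22387, 27333 and 21809 at pnd2. The gd16 arrays were the closest together and all lay above every gd14 array. The change from gd14 to gd16 was 0.75 ± 0.16 (log2, SE, n = 3 arrays a stage, adjusted p = 0.00325), and that from gd11 to pnd2 was 0.67 ± 0.16 (adjusted p = 0.00233). A second Col3a1 probe set did not pass the F test. It changed by 0.30 from gd14 to gd16 (adjusted p = 0.385) and by 0.62 from gd11 to pnd2 (adjusted p = 0.0351). With all probe sets of the gene averaged, the gd14 to gd16 call was lost (0.52, adjusted p = 0.0703).

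Col1a2 encodes the second chain of type I collagen, the main protein of connective tissue fibres. Its signals were 8112, 11751 and 14882 at gd11, 14927, 11239 and 14136 at gd12, 8923, 14734 and 8557 at gd14, 25351, 20597 and 15952 at gd16, 17740, 12626 and 19642 at gd18 and 17780, 21609 and 18343 at pnd2. The gd16 arrays all lay above the gd14 arrays, with array 7 the highest and array 9 close to the highest gd14 array. The rise from gd14 to gd16 was 0.96 ± 0.23 (adjusted p = 0.00716) and was 0.80 without array 7 (adjusted p = 0.041). From gd11 to pnd2 the rise was 0.77 ± 0.23 (adjusted p = 0.0113), and without gd11 array 16, the one with neuronal signal, it was 0.53 (adjusted p = 0.0775). With the gd11 array labelled as gonad alone as the only gd11 array, assumed to vary like the others, the change was 0.36 for Col1a2 (adjusted p = 0.399) and 0.41 for Col3a1 (adjusted p = 0.152). From gd12 to pnd2 neither representative probe set was called, with 0.52 ± 0.23 for Col1a2 (adjusted p = 0.0822) and 0.39 ± 0.16 for Col3a1 (adjusted p = 0.0639). A second Col1a2 probe set was called higher from gd12 to pnd2 (0.78, adjusted p = 0.0232) and not from gd14 to gd16 (0.61, adjusted p = 0.108). Another was called higher from gd14 to gd16 (0.87, adjusted p = 0.0296) and not from gd12 to pnd2 (0.03, adjusted p = 0.94).

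Col1a1, the partner chain of Col1a2, gave signals of 1068, 1921 and 2046 at gd11, 1270, 1604 and 1525 at gd12, 2794, 2267 and 1197 at gd14, 2388, 2128 and 1399 at gd16, 3403, 1439 and 2416 at gd18 and 2947, 2854 and 2052 at pnd2. Its arrays overlapped between all neighbouring stages, and its change was -0.03 ± 0.32 from gd14 to gd16 and 0.67 ± 0.32 from gd11 to pnd2 (adjusted p = 0.961 and 0.102). A second Col1a1 probe set was called by the F test, with a mean of 113 at gd12 and 428 at gd18. Col5a1, a chain of the type V collagen that seeds fibrils, rose by 0.89 ± 0.27 from gd14 to gd16 (adjusted p = 0.03). Its signals were 1575, 2728 and 1785 at gd14 and 5118, 4101 and 2364 at gd16, so the stages overlapped, and array 7 was the highest. That call was lost under 8 of 16 alternatives, among them leaving out gd14 array 10 or 12 or gd16 array 7 or 8 (adjusted p 0.091 to 0.142). Its partner Col5a2 changed by 0.75 ± 0.27 between the same stages, short of the threshold (adjusted p = 0.0636).

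The other fibrillar genes did not share that course. Col2a1, the chain of cartilage type II collagen, had signals of 287, 137 and 224 at gd11 and no more than 44.3 on any later ovary array. It fell by 1.99 ± 0.32 from gd11 to gd12 (adjusted p = 0.00131), to levels below the median of all ovary values. Because Col2a1 passed the filter through gd11 alone, it had to be higher there, and this p-value is no separate support. With gd11 array 19 as the only gd11 array the change was -2.09 (adjusted p = 0.0572). Col11a1, a chain of type XI collagen that joins type II and type V fibrils, ran from 795 to 1090 at gd11 and from 301 to 459 at gd16. It rose again by 0.92 ± 0.25 from gd18 to pnd2 (adjusted p = 0.0205), where its arrays read 742, 729 and 858, all above the 374, 330 and 498 of gd18. That call was lost with any of 4 arrays left out, at adjusted p between 0.0571 and 0.0878. A second Col11a1 probe set changed by 0.42 in that step and was not called (adjusted p = 0.202). It was called lower from gd11 to pnd2 (-0.76, adjusted p = 0.00636), where the representative probe set was not (-0.27, adjusted p = 0.415). Col24a1, a minor fibrillar collagen, read 50.6, 53.4 and 52.4 at gd11 and 174, 123 and 208 at pnd2, a rise of 1.24 ± 0.29 (adjusted p = 0.00216). Because Col24a1 passed the filter through gd18 and pnd2 alone, this p-value is no separate support. Col27a1 rose by 0.52 ± 0.18 over the same span (adjusted p = 0.0265) with arrays that overlapped. Its call was lost under 7 of 18 alternatives, among them leaving out gd11 array 16 (0.38, adjusted p = 0.134), gd11 array 19 (adjusted p = 0.0916) or pnd2 array 3 (adjusted p = 0.0925).

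**Figure D2:**
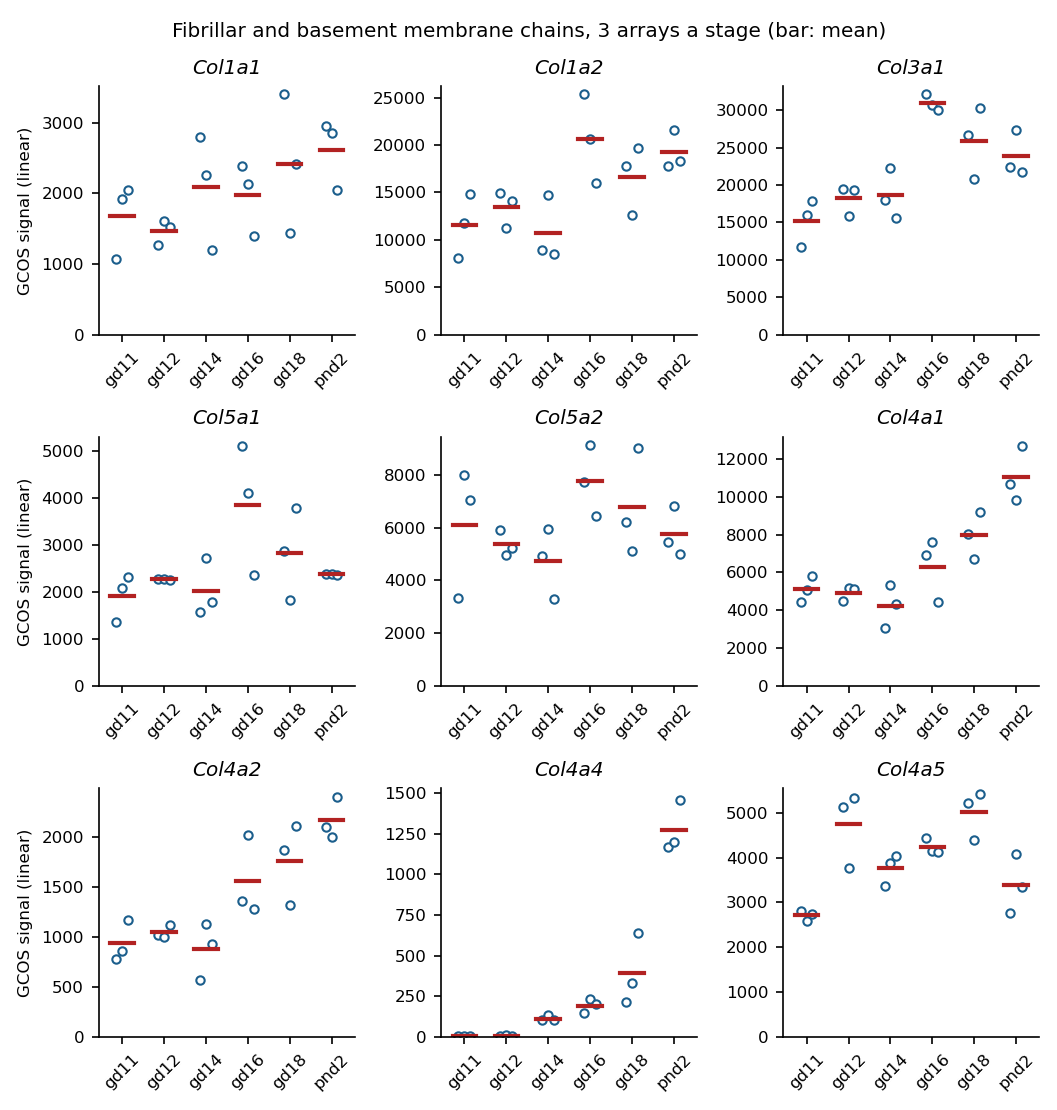
Each panel plots the linear array signal (y axis from 0) of 1 fibrillar or basement membrane gene against stage (x axis), with an open circle for each array and a bar for the mean of 3. Col3a1 and Col1a2 step up at gd16, Col4a1 and Col4a2 climb to pnd2, and the Col4a4 arrays at pnd2 lie at 1166 to 1458, above all earlier ones.

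The type VI collagen chains rose together. Col6a1, Col6a2 and Col6a3, the 3 chains that form its classical heterotrimer, were each higher at gd12 than at gd11 and higher again at gd16 than at gd14. The Col6a1 arrays read 419, 531 and 418 at gd11, 1152, 1249 and 1211 at gd12, 2070, 3223 and 2495 at gd14, 7332, 5907 and 4402 at gd16, 6440, 4217 and 7489 at gd18 and 4887, 6614 and 4847 at pnd2. Every stage up to gd16 lay wholly above the stage before, and gd16, gd18 and pnd2 overlapped. Its changes were 1.35 ± 0.21 from gd11 to gd12, 1.07 ± 0.21 from gd12 to gd14 and 1.16 ± 0.21 from gd14 to gd16 (adjusted p = 0.0013, 0.00198 and 0.00109). From gd11 to pnd2 it rose by 3.49 ± 0.21 (adjusted p = 5.19e-10).

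Col6a2 gave 411, 827 and 814 at gd11, 2347, 2306 and 2006 at gd12, 3668, 4648 and 3142 at gd14, 12534, 10289 and 6670 at gd16, 9794, 6186 and 10023 at gd18 and 6996, 8690 and 7471 at pnd2. The stages up to gd16 did not overlap, and the low gd11 value was that of array 16. Its steps were 1.71 ± 0.25, 0.76 ± 0.25 and 1.33 ± 0.25 (adjusted p = 0.00083, 0.0459 and 0.00143), and 3.50 ± 0.25 over the whole span (adjusted p = 4.57e-09). The middle step was lost with any of 5 arrays of gd12 or gd14 left out, at adjusted p between 0.073 and 0.173.

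The Col6a3 arrays read 508, 630 and 626 at gd11, 1743, 1680 and 1665 at gd12, 1511, 2292 and 1779 at gd14, 5881, 4842 and 3117 at gd16, 4341, 2496 and 4064 at gd18 and 3122, 4408 and 2040 at pnd2. Unlike those of the other chains, its gd12 and gd14 arrays overlapped. It rose by 1.49 ± 0.26 from gd11 to gd12 and by 1.27 ± 0.26 from gd14 to gd16 (adjusted p = 0.00303 and 0.0026). Without gd16 array 7, the highest gd16 array for the 3 chains, the last step was 0.99 for Col6a1, 1.13 for Col6a2 and 1.07 for Col6a3, with adjusted p from 0.00861 to 0.018. With gd11 array 19 alone for gd11, the step from gd11 to gd12 was 1.46, 1.41 and 1.39 in the same order, and none passed the threshold (adjusted p = 0.052, 0.0545 and 0.137). Over the 18 arrays Col6a1 and Col6a2 correlated with r = 0.985, and within stages with r = 0.753. Both use the same arrays and share the stage means.

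Col6a4, a later-described chain that can stand in for Col6a3, had stage means below 116.05 through gd16 and read 134, 213 and 189 at gd18 and 248, 207 and 174 at pnd2. It rose by 1.31 ± 0.28 from gd14 to gd16 (adjusted p = 0.0031) and by 2.39 ± 0.28 from gd11 to pnd2 (adjusted p = 1.55e-06). Because Col6a4 passed the filter through gd18 and pnd2 alone, the p-value from gd11 to pnd2 is no separate support. Col6a5, another such chain, never passed the filter, with signals of 1.51 to 40.9. Of 4 stroma markers, 0 were called higher and 1 lower from gd11 to pnd2 (median -0.13), beside 26.3% and 20.6% of all genes. The summed stroma signal was 10920 to 16454 at gd11 and 10712 to 12295 at pnd2. From gd14 to gd16, 1 of the 4 stroma markers was called higher, beside 11.4% of all genes. The summed stroma signal went from 10982 to 12500 at gd14 to 13641 to 22041 at gd16. The part of cell number in the type VI rise was not tested.

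**Figure D3:**
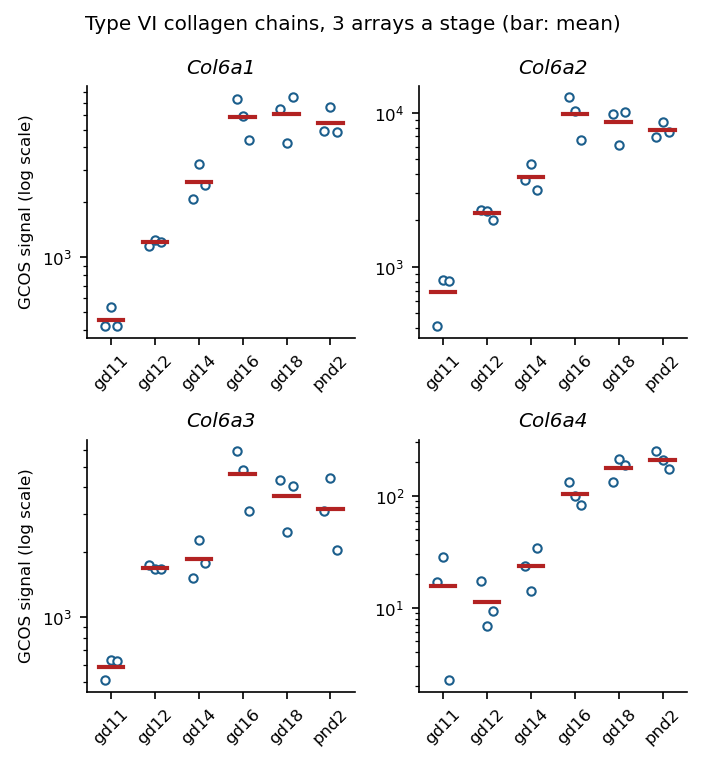
The 4 panels plot the array signal of the type VI chains on a log scale against stage, with an open circle for each of 3 arrays and a bar for their mean. Col6a1, Col6a2 and Col6a3 rise from gd11 to gd16 and level off, with Col6a1 arrays at 418 to 531 at gd11 and 4402 to 7332 at gd16.

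In the basement membrane group, 6 of the 7 tested genes passed the F test (85.7%), beside 68.1% of all genes. At pnd2 3 were called higher than at gd11 (42.9%) and none lower, beside 26.3% of all genes higher and 20.6% lower. Col4a4 had the widest range of all tested collagens. It encodes a chain of the type IV network that replaces the embryonic network in some mature basement membranes. Its signals were 3.36, 6.21 and 5.26 at gd11, 6.64, 8.95 and 5.41 at gd12, 101, 135 and 101 at gd14, 146, 231 and 200 at gd16, 212, 332 and 638 at gd18 and 1166, 1197 and 1458 at pnd2. No gd12 array reached any gd14 array, and the pnd2 arrays lay above all others. It rose by 1.91 ± 0.27 from gd12 to gd14 (adjusted p = 8.15e-05), by 1.74 ± 0.27 from gd18 to pnd2 (adjusted p = 0.000322) and by 5.18 ± 0.27 from gd11 to pnd2 (adjusted p = 6.82e-11). The earliest signals lie far under the pseudocount, so the last value depends on it. Because Col4a4 passed the filter through gd16, gd18 and pnd2 alone, the p-value from gd11 to pnd2 is no separate support. A second Col4a4 probe set rose in parallel, from a mean of 11 at gd11 to 951 at pnd2, and another from 26.5 to 130. Of Col4a3, whose product joins that of Col4a4 in the same trimer, the representative probe set stayed at 10.4 to 98.1, and a second probe set had a mean of 22.1 at gd18 and 137 at pnd2 (change 1.71, adjusted p = 0.00757). That second probe set passed the filter through pnd2 alone, so it had to be higher there and its p-value is no separate support.

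Col4a1 and Col4a2 encode the chains of the ubiquitous type IV trimer. Col4a1 read 4438, 5068 and 5809 at gd11, 4470, 5168 and 5146 at gd12, 3042, 5358 and 4307 at gd14, 6905, 7613 and 4417 at gd16, 8029, 6706 and 9177 at gd18 and 10662, 9850 and 12680 at pnd2. Its stages up to gd14 overlapped, and the pnd2 arrays lay above all others. From gd11 to pnd2 it rose by 1.11 ± 0.20 (adjusted p = 0.000201), and from gd12 by 1.16 ± 0.20 (adjusted p = 0.000179). A second Col4a1 probe set did not pass the F test, with means of 1358 at gd11 and 1800 at pnd2.

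The Col4a2 arrays read 782, 862 and 1171 at gd11, 1015, 1001 and 1116 at gd12, 569, 1128 and 928 at gd14, 1363, 2022 and 1274 at gd16, 1864, 1314 and 2109 at gd18 and 2099, 1994 and 2396 at pnd2. Its gd16 arrays all lay above those of gd14, a rise of 0.83 ± 0.23 (adjusted p = 0.0181), and over the span it rose by 1.20 ± 0.23 (adjusted p = 0.000384). The gd14 to gd16 call was lost under 5 of 16 alternatives, among them median scaling (adjusted p = 0.0618) and leaving out gd14 array 10 (0.56, adjusted p = 0.1) or gd16 array 8 (0.63, adjusted p = 0.0915). With gd11 array 19 as the only gd11 array, the change over the span was 0.86 (adjusted p = 0.0582). Col4a1 changed by 0.57 ± 0.20 from gd14 to gd16 (adjusted p = 0.0536). The pair correlated with r = 0.944 over the 18 arrays and 0.876 within stages. Endothelial markers went the other way from gd11 to pnd2, with 3 of 7 lower, none higher and a median of -0.84. Over that span 20.6% of all genes were lower and 26.3% higher. The summed endothelial signal was 4047 to 5534 at gd11 and 2228 to 3742 at pnd2. Granulosa and gonad markers rose, with 6 of 7 higher and summed signals of 5154 to 6558 at gd11 and 19374 to 26158 at pnd2, and so did germ cell markers, with 4 of 4 higher. Their part in the type IV changes was not tested.

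Col4a5 and Col4a6, the chains of the third type IV network, had a different course. Col4a5 rose by 0.78 ± 0.15 from gd11 to gd12 (adjusted p = 0.00496) and fell by 0.57 from gd18 to pnd2 (SE 0.15, adjusted p = 0.0149). Its arrays read 2813, 2594 and 2738 at gd11, 5138, 3770 and 5330 at gd12, 5213, 4402 and 5412 at gd18 and 2760, 4071 and 3346 at pnd2, so each of these steps was without overlap. With gd11 array 19 as the only gd11 array the first step was 0.77 (adjusted p = 0.159). The fall after gd18 was lost with gd18 array 4, gd18 array 6 or pnd2 array 1 left out (adjusted p = 0.0502, 0.0677 and 0.101). Col4a6 fell by 0.75 from gd12 to pnd2 (SE 0.25, adjusted p = 0.0264), with overlapping arrays, and the call was lost without gd12 array 13 or 15 or pnd2 array 1 or 3 (adjusted p 0.061 to 0.132). The pair correlated with r = 0.744 over the arrays and 0.663 within stages. Col15a1 and Col18a1, whose products carry the endostatin-type fragments at basement membranes, passed the F test. Col15a1 fell by 0.87 from gd12 to gd14 (SE 0.21, adjusted p = 0.00637) and rose by 0.73 ± 0.21 from gd14 to gd16 (adjusted p = 0.0187), with means of 145 at gd14 and 265 at gd16. The rise was lost under 6 of 15 alternatives, among them leaving out gd14 array 10 or 12 or gd16 array 7 or 8 (adjusted p 0.0546 to 0.0864). Col18a1 was lowest at gd14, at 2001, 2745 and 1723, and highest at pnd2, at 4048, 3980 and 4932. No single comparison named here was called for this representative probe set. A second Col18a1 probe set was called higher from gd11 to pnd2 (0.53, adjusted p = 0.0377).

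The fibril-associated collagens split. Col9a1 and Col9a3 belong to the same type IX trimer of cartilage and ran in opposite directions. Col9a1 read 1456, 1182 and 2722 at gd11, 374, 276 and 266 at gd12, 83.1, 140 and 195 at gd14, 186, 73.5 and 71.8 at gd16, 29.1, 53.1 and 46.2 at gd18 and 33.0, 54.0 and 46.2 at pnd2. The gd11 arrays lay above all others and the highest was array 19, labelled as gonad alone. It fell by 2.36 from gd11 to gd12 (SE 0.32, adjusted p = 0.000468). From gd11 to pnd2 it fell by 4.51 (SE 0.32, adjusted p = 4.25e-09). Because Col9a1 passed the filter through gd11, gd12 and gd14 alone, this last p-value is no separate support. A second Col9a1 probe set, with means of 220 at gd11 and 89.4 at pnd2, fell by 1.11 over the span.

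Col9a3 read 25.7, 32.9 and 89.7 at gd11, at most 76.3 on any array of gd12 to gd18, and 435, 459 and 243 at pnd2. It rose by 2.25 ± 0.36 from gd18 to pnd2 (adjusted p = 0.000431), and a second Col9a3 probe set rose by 2.00. Because Col9a3 passed the filter through pnd2 alone, it had to be higher there, and this p-value is no separate support. Col9a2, the third chain, read 7.13, 25.5 and 2.47 at gd11, 161, 66.9 and 129 at gd18 and 127, 129 and 117 at pnd2, a rise of 1.90 ± 0.39 from gd11 to pnd2 (adjusted p = 0.000606). Because Col9a2 passed the filter through gd18 and pnd2 alone, this p-value too is no separate support. Col9a1 and Col9a2 correlated with r = -0.712 over the 18 arrays and -0.6 within stages. Among 6 cartilage markers, only Hapln1 and Cnmd passed the filter, and Acan, Matn1, Matn3 and Comp did not. Hapln1 fell by 2.43 from gd11 to pnd2 (adjusted p = 2.22e-06), from 1514, 2389 and 2630 at gd11 to 363, 478 and 288 at pnd2. Cnmd, which encodes chondromodulin, rose by 2.79 ± 0.53 (adjusted p = 0.000322), with 667, 953 and 221 at pnd2. The summed cartilage signal was 1883 to 2813 at gd11, 492 to 698 at gd14 and 732 to 1823 at pnd2. Of the 6 markers of the mesonephric duct, 5 were lower from gd11 to pnd2, beside 20.6% of all genes. The summed duct signal was 261 to 610 at pnd2. From gd11 to gd12, the step in which Col2a1 and Col9a1 fell most, 1 of the 6 duct markers was lower (median -0.47), beside 1.42% of all genes. From gd12 to gd14, 3 duct markers were lower (median -1.20), beside 8.01% of all genes. Col2a1 changed there by -0.19 (adjusted p = 0.739). The part of either tissue in the type II and type IX changes was not tested.

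Col12a1 and Col16a1, which bind to fibril surfaces, rose. Col12a1 read 287, 404 and 1144 at gd11, 589, 1282 and 825 at gd12, 1191, 1457 and 1077 at gd14, 1879, 1830 and 1736 at gd16, 2416, 2522 and 3012 at gd18 and 2230, 2216 and 2765 at pnd2. The gd16 arrays lay above those of gd14 and the gd18 arrays above those of gd16, although no single step was called. From gd11 to pnd2 it rose by 2.15 ± 0.33 (adjusted p = 3.81e-05), and by 1.04 with gd11 array 19 as the only gd11 array. From gd12 to pnd2 it rose by 1.45 ± 0.33 (adjusted p = 0.00199). That call was lost with all probe sets of the gene averaged (0.60, adjusted p = 0.122). Col16a1 rose by 1.01 ± 0.22 from gd11 to gd12 (adjusted p = 0.0116), from 218, 368 and 291 to 553, 720 and 565. That call was lost without gd11 array 16 (adjusted p = 0.0619) and without gd12 array 14 (adjusted p = 0.0785). The representative Col14a1 probe set did not pass the F test, with stage means of 740 to 1175. A second Col14a1 probe set passed it and was called higher from gd11 to pnd2 (0.95, adjusted p = 0.0042). Col22a1 stayed near the filter.

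Col8a1, a short-chain collagen of vessel walls and of Descemet's membrane in the eye, fell early and returned late. Its arrays read 276, 1385 and 490 at gd11, 61.9, 49.4 and 50.7 at gd12, 40.6, 89.6 and 56.0 at gd14, 157, 190 and 138 at gd16, 898, 798 and 1135 at gd18 and 443, 953 and 1856 at pnd2. The gd11 and pnd2 arrays were widely spread and all lay above those of gd12 to gd16. It fell by 2.85 from gd11 to gd12 (SE 0.44, adjusted p = 0.00117) and rose by 2.33 ± 0.44 from gd16 to gd18 (adjusted p = 0.00346), the only collagen called in that step. With all probe sets of the gene averaged, the second change was 0.97 (adjusted p = 0.0595). Its partner Col8a2 rose by 0.72 ± 0.25 from gd11 to pnd2 (adjusted p = 0.0253). That call was lost under 6 of 17 alternatives, among them leaving out gd11 array 18 (0.58, adjusted p = 0.108) or pnd2 array 2 (0.51, adjusted p = 0.14), and with gd11 array 19 as the only gd11 array (0.52, adjusted p = 0.313). The pair correlated by r = 0.418 over the arrays and 0.0688 within stages.

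**Figure D4:**
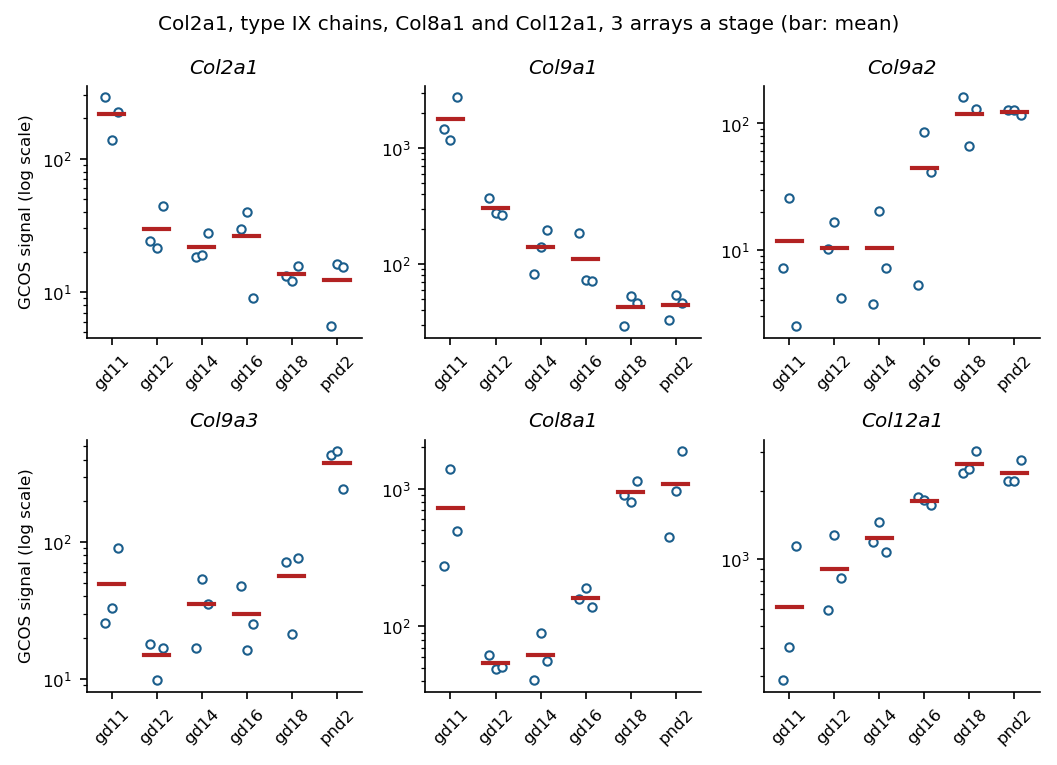
The 6 panels plot array signals on a log scale against stage for Col2a1, the 3 type IX chains, Col8a1 and Col12a1, with an open circle for each of 3 arrays and a bar for their mean. Col9a1 and Col2a1 are highest at gd11, Col9a3 stands out at pnd2 with 243 to 459, and Col8a1 dips to 40.6 to 89.6 at gd14.

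Col23a1, a membrane-spanning collagen, fell by 1.26 from gd11 to pnd2 (SE 0.31, adjusted p = 0.00336), from 316, 504 and 498 to 125, 220 and 154. Col13a1, a membrane collagen of adhesion sites, fell by 1.04 from gd12 to pnd2 (SE 0.32, adjusted p = 0.0145) but did not pass the F test, and the call was lost without gd12 array 15 (adjusted p = 0.0915) or pnd2 array 1 (adjusted p = 0.0839). Col25a1, a membrane collagen of neurons, passed the F test with means from 325 at gd14 to 921 at gd11, and was not called from gd11 to pnd2 (-0.40 ± 0.30, adjusted p = 0.303). Its gd11 arrays read 438, 1092 and 1232, the lowest on array 16, the one with neuronal signal. Without array 16, Col25a1 was called lower from gd11 to pnd2 (-0.85, adjusted p = 0.0125). It was then also called lower from gd11 to gd12 (-1.31, adjusted p = 0.0095), where it was not with all arrays (-0.86, adjusted p = 0.122). With array 19 as the only gd11 array, the change from gd11 to pnd2 was -0.94. Neural markers fell, with 4 of 4 lower from gd11 to pnd2, beside 20.6% of all genes. The summed neural signal was 744 to 16718 at gd11 and 117 to 153 at pnd2. Col26a1, first described from testis and ovary, fell by 0.59 from gd11 to pnd2 (SE 0.20, adjusted p = 0.0222), a call lost without any of 3 arrays or with array 19 as the only gd11 array (adjusted p 0.0552 to 0.11). Col7a1, the anchoring fibril collagen of skin, fell by 0.67 from gd12 to gd14 (SE 0.22, adjusted p = 0.0449) and was lost in 5 of the 6 fits that leave out an array of those stages.

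Probe sets of a gene mostly moved together. Of the 82 collagen probe sets 58 were tested, and 19 genes had at least 2 tested. None of the 19 had probe sets called in opposite directions in any comparison. Changes differed by over 1 on the log2 scale between the probe sets of Col4a4, Col8a1, Col9a1 and Col9a3.

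Genes that build, bind or remove collagen changed in both directions. Of 11 tested genes for matrix proteins that bind collagen, 8 were higher and 1 lower from gd11 to pnd2, with a median of 1.72, beside the 26.3% and 20.6% of all genes given above. Ogn (osteoglycin) rose by 4.74 ± 0.38 (adjusted p = 1.74e-08), from 45.8, 13.3 and 77.2 at gd11 to 2244, 1736 and 1733 at pnd2. Dcn (decorin), a proteoglycan that coats collagen fibrils, rose by 3.10 ± 0.26 (adjusted p = 2.73e-08), from 1408, 1624 and 1920 to 13618, 16591 and 12919. Aspn (asporin) rose by 2.27 ± 0.37 from 1.12, 3.62 and 12.5 at gd11 to 145, 223 and 89.9 at pnd2. For each of the 3 the pnd2 arrays lay above every gd11 array.

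Of 19 tested genes of chain synthesis and folding, 5 were higher and 4 lower over the span (median 0.18), shares close to the 26.3% and 20.6% of all genes. Creb3l1, a factor that activates collagen transcription, rose from 128, 146 and 194 to 378, 300 and 346 (adjusted p = 0.00334), and Mia3, the export receptor for bulky collagens, rose by 0.73 ± 0.17. Serpinh1, the collagen chaperone HSP47, fell by 0.75 (SE 0.23, adjusted p = 0.0146). Of 8 tested genes of processing and cross-linking, 3 were higher and 3 lower, beside the same shares of all genes. Lox, lysyl oxidase, which cross-links collagen, rose by 2.39 ± 0.37 (adjusted p = 4.24e-05), from 132, 175 and 262 at gd11 to 1565, 1279 and 645 at pnd2. The proteases Tll1 and Adamts3, which trim procollagen, fell as well, by log2 changes of -2.52 ± 0.42 and -1.75 ± 0.25.

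Of 5 tested receptors 2 were lower and none higher over the span, beside 20.6% of all genes lower and 26.3% higher. Ddr2, a receptor tyrosine kinase for fibrillar collagen, fell by 0.85, and Mrc2, an uptake receptor, fell by 0.70. Of 9 tested breakdown genes none was called over the span, and 3 were higher from gd14 to gd16, the step at which 9 collagens rose and 11.4% of all genes were higher. Mmp2, a gelatinase, rose there by 1.12 ± 0.28 (adjusted p = 0.00897), from 4673, 5016 and 3842 to 9940, 11518 and 8212. Mmp14, a membrane-bound collagenase, rose from 1003, 1537 and 1002 to 2050, 2689 and 2341 (adjusted p = 0.00897). Timp3, a protease inhibitor, rose by 0.52 ± 0.17. In the same step 4 of 19 synthesis genes (P4ha1, Plod3, P3h1 and P3h2, all hydroxylases of collagen chains), 1 of 8 processing genes (Loxl1) and 3 of 11 binding genes (Dcn, Bgn and Sparc) were higher and none of these lists had a gene lower, beside the same 11.4% of all genes higher and 9.77% lower. Of 9 tested genes of the TGF-beta pathway, which drives collagen transcription in many tissues, 3 were higher in that step, and 4 were higher and 2 lower from gd11 to pnd2, beside 26.3% of all genes higher and 20.6% lower. Tgfb3 rose by 1.33 ± 0.24, Smad3 by 1.25 ± 0.14 and the co-receptor Tgfbr3 by 0.98 ± 0.24 over the span.

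The reference array of whole newborn animals gave a collagen profile apart from that of the pnd2 ovary, as far as a single array shows, and no test was made. Of the 39 collagen genes above 116.05 on either side, 15 were over 2-fold higher in the reference on the log2(signal + 31) scale (38.5%), beside 20.9% of all 13173 such genes. Only Col4a5, Col4a4 and Col4a6 were over 2-fold higher in the pnd2 ovary, where 19.1% of all genes were. The median log2 ratio of reference to ovary was 0.55 over the collagens and -0.09 over all genes. The cartilage collagens led, with 5271 on the reference and 44.4 ± 10.6 (SD, n = 3) at pnd2 for Col9a1, and 2783 and 12.3 ± 5.89 for Col2a1. Next came Col10a1 of growth plate cartilage (178 and 3.99 ± 0.588), Col14a1 (5871 and 1042 ± 296), the skin collagen Col17a1 (539 and 77.0 ± 26.5) and Col9a3 (1904 and 379 ± 118).

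At the other end, the ovary was 4.41 times the reference for Col4a5 (3392 ± 657 and 769), 3.87 times for Col4a4 (1273 ± 160 and 329) and 3.30 times for Col4a6 (191 ± 25.6 and 58.1). Of the genes above 116.05 on either side, Col18a1 and Col25a1 followed, at 1.80 and 1.44 times. All of these but Col25a1 are basement membrane genes, and Col4a1 and Col4a2 are not among them. Of the 42 collagen genes, 20 were higher on the reference than on every ovary array. The share of all genes that did so was not counted, so this number has no background to be read against.

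**Figure D5:**
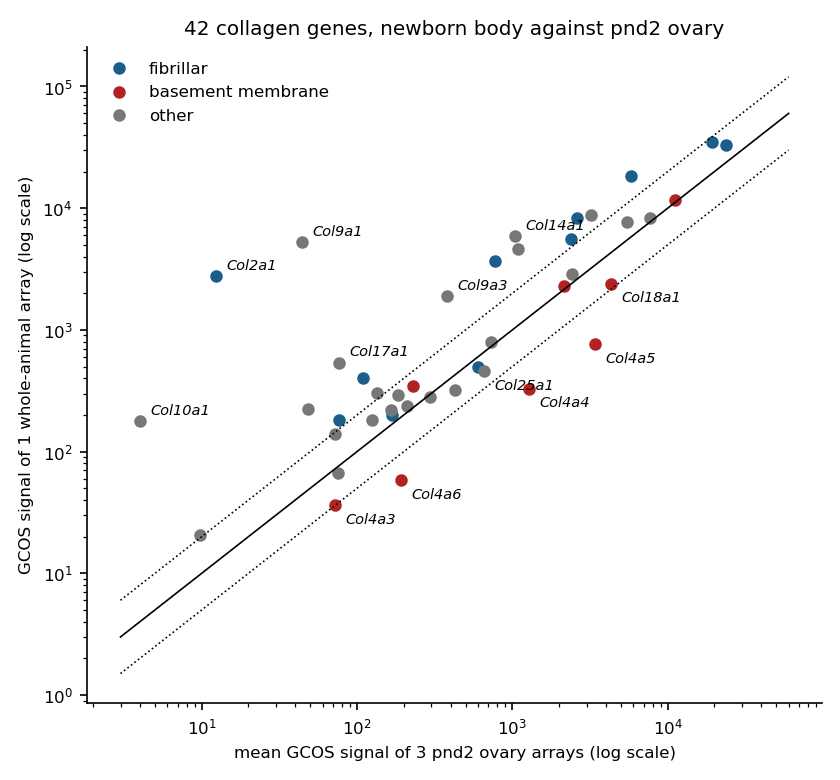
Each point is 1 of 42 collagen genes, with the mean signal of the 3 pnd2 ovary arrays on the x axis and the signal of the whole-animal array on the y axis, both on log scales. The solid line marks equal signals and the dotted lines 2-fold either way, and colours give the group. Col9a1 and Col2a1 lie far above the lines, and Col4a4, Col4a5 and Col4a6 below them.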

How the data were processed

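The deposited values are signal intensities of 19 arrays on a linear scale, which per the submitters' processing notes came from GCOS, the Affymetrix array software, in a version not given in the sources used here. The authors' values had a 2%-trimmed mean that averaged 499.9 over the 18 ovary arrays of the deposited file, and single arrays were not listed. The values were used as deposited without further normalization. The file holds no detection calls, so what counts as background is not known. Gene names came from GEO's platform annotation, in which 34958 of 45101 probe sets had 1 gene, 932 had several and 9211 had none. The members, the gene lists and the comparisons were chosen with earlier results of these data known. Changes were fitted on log2(signal + 31) with limma 3.58.1 in R 4.3.3 (1 term for each of 6 stages, all 18 ovary arrays, trended empirical Bayes, 12 residual degrees of freedom). The p-values were adjusted by Benjamini-Hochberg over 26431 probe sets. Probe sets entered when their mean passed 116.05 in at least 1 stage. Background shares are over 12565 genes with 1 probe set each. The fit was tested on simulated data.

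Every member is accounted for. Arrays were given singly for Col1a1, Col1a2, Col3a1, Col4a1 and Col4a2. They were also given, for all stages or some, for the members with the widest range and for many of the largest called changes. The called falls of Col4a6, Col7a1, Col13a1, Col15a1 and Col26a1 were given without single arrays. Of each pathway list the 3 called genes with the largest change from gd11 to pnd2 were named, and further list genes where their role stands beside a collagen result. P-values measure the spread between arrays, and whether the pools of some stages narrow it is not stated. The number of arrays, 3 a stage, limits the precision. Alternatives covered the pseudocount, scaling, filter, trend, weights, gd11 arrays, probe set choice, a 2-fold threshold and leaving out each array.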

Additional observations from a re-analysis of the deposited data

How the results depend on the processing

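Of 65 called changes of collagen genes, 36 were called under every alternative tried other than the 2-fold threshold, 29 were lost under at least 1, and none reversed. With array 19 as the only gd11 array, 11 of 28 changes were lost, and the count from gd11 to gd12 was 2 in place of 8. From gd12 to gd14 the count of 6 became 3 without the filter and 3 with a 2-fold threshold. Quantile normalization gave 3 higher and 6 lower there, and median scaling 3 and 4. From gd14 to gd16 they gave 12 and 6 in place of 9, all higher. The 2-fold threshold gave 4 from gd14 to gd16 and 2 from gd18 to pnd2. Averaging all probe sets of a gene gave 0 from gd16 to gd18, where Col8a1 had an adjusted p of 0.0595 in limma. The filter at the 75th percentile, under which fewer genes were tested, gave 13 from gd11 to pnd2. Median scaling moved the median change of all probe sets from 0.01 to -0.13 from gd11 to pnd2, from 0.08 to -0.10 from gd14 to gd16 and from 0.04 to -0.08 from gd11 to gd12. Unless the construction shows it, the cause was not tested.

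With each array left out in turn, counts ranged from 24 to 27 for the F test, 8 to 9 from gd11 to gd12, 3 to 7 from gd12 to gd14, 6 to 14 from gd14 to gd16, 1 to 2 from gd16 to gd18, 2 to 4 from gd18 to pnd2, 18 to 22 from gd11 to pnd2 and 13 to 16 from gd12 to pnd2. The count from gd16 to gd18 was 2 without gd16 array 8 or gd18 array 4, and that from gd18 to pnd2 was 2 without gd18 array 4 or pnd2 array 1. Signals near the pseudocount, as for Col4a4, Col9a2 and Col6a4 at gd11, give no reliable fold. No paired analysis was possible because the replicate numbers are unique over the series and shared by no 2 stages.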
